A study of Mus musculus with 12 samples.

Results

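The transcription factors that specify the neural crest and its melanocyte descendants were followed with the neurotrophin receptor gene Ngfr, 10 genes chosen by name from the 55471 gene identifiers counted: Mitf, Sox10, Sox9, Sox2, Pax3, Foxd3, Tfap2a, Tfap2b, Tfap2c and Ngfr. RNA was sequenced from 4 mouse melanoma cell lines, MeVa2.1.dOVA, MeVa2.1, MeVa2.2.dOVA and MeVa2.2, with 3 libraries of each. Per the labels, every line is wild type in genotype, was left untreated and has a subcutaneous skin tumour as its source. The labels do not explain dOVA, and each dOVA line is taken as made from the line of the same root name. MeVa2.1.dOVA is described as immune-refractory in the title of the series. Each name is 1 line, so a difference between names is a difference between these lines.

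Melanocytes arise from the neural crest, an embryonic population that also gives Schwann cells, sensory neurons and facial cartilage. AP-2 proteins, PAX3, FOXD3, SOX9 and SOX10 act early in the crest. SOX10 and PAX3 then activate Mitf, whose product drives the pigment enzymes, while FOXD3 and SOX2 are known as repressors of Mitf in the lineage. NGFR, the p75 neurotrophin receptor, is a marker of crest stem cells and of melanoma cells that have lost melanocyte features.

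Gene counts per library ranged from 16181816 to 35627069. Levels are given as gene counts scaled to the library total (counts per 1e+06, CPM), and single genes are ranked against each other per length, as CPM per kilobase of merged exons (RPKM). Replicate 2 of MeVa2.1.dOVA and replicate 2 of MeVa2.2 lay apart from their lines in principal components, and calls of single genes that end without both are named where they occur. Of 6 fixed melanocyte markers, Tyr, Tyrp1, Dct, Pmel, Mlana and Slc45a2, the summed level was between 0.213 and 41.8 CPM, so the labelled cell type carries little of its defining RNA in most libraries. Tyrp1, Dct and Mlana all had counts in 5 of 12 libraries and were at 0 in the other libraries. Markers of leukocytes summed to at most 0.756 CPM and those of endothelium to at most 1.24 CPM, while 6 fibroblast markers summed to between 229 and 1700 CPM. Of these 6, Col1a1 had 200.3 to 1460 CPM and Pdgfra 10.9 to 199.8 CPM, whereas Dcn, Lum and Fap had at most 4.17, 5.52 and 4.54 CPM. In bulk libraries, fewer cells that express a gene and less RNA per cell cannot be told apart.

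Per length, Sox2 stood at the top of the 10 genes in all lines, with a mean of 42.2 RPKM over 12 libraries. Tfap2a followed with 14.4 RPKM, Tfap2b with 8.33 RPKM, Sox9 with 7.58 RPKM and Pax3 with 4.82 RPKM. Mitf had 2.27 RPKM, Foxd3 1.48 RPKM, Ngfr 0.266 RPKM, Sox10 0.0586 RPKM and Tfap2c 0.00122 RPKM. The positions of Tfap2b and Foxd3 differed between lines: Tfap2b was the third of the 10 in MeVa2.1.dOVA and in MeVa2.1, and stood below Sox10 in MeVa2.2.dOVA and in MeVa2.2. Neighbours in the order overlapped in range over the libraries, except that Sox2, from 26.2 to 66.5 RPKM, lay above Tfap2a, from 5.97 to 24.2 RPKM. A filter on low counts kept 8 of the 10. Sox10 and Tfap2c did not pass it, and Foxd3, Tfap2b and Ngfr passed through the libraries in which they are high, so a difference between lines was built into their presence among the tested genes.

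**Figure D1:**
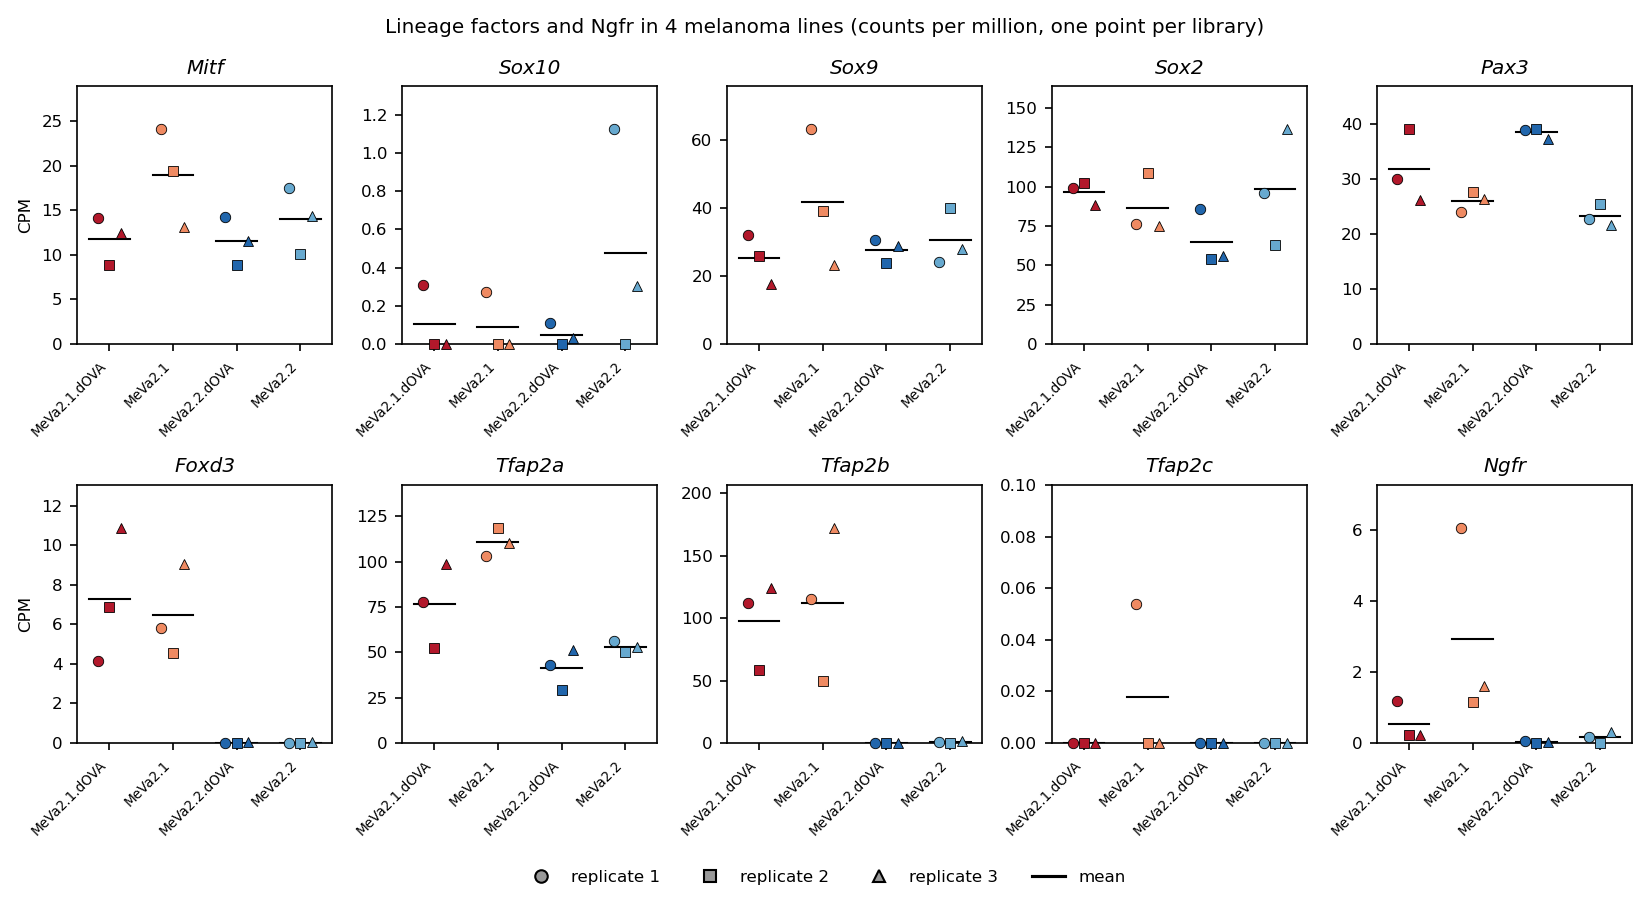
Level of each of the 10 genes in CPM (vertical axis, starting at 0 in each panel) by line, with 1 symbol per library (circle, square and triangle for replicates 1, 2 and 3) and a bar at the mean of 3. Foxd3 and Tfap2b sit at or near 0 in all libraries of MeVa2.2.dOVA and MeVa2.2, whereas Sox2, Pax3, Sox9 and Mitf are present in all 12 libraries.

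The parental lines differed in the crest factors Foxd3, Tfap2b and Tfap2a and in Ngfr, all higher in MeVa2.1 than in MeVa2.2. Of the 8 tested genes these 4 passed an adjusted p of 0.05 (edgeR's quasi-likelihood test, Benjamini-Hochberg adjusted over 13985 genes) and none was lower, where 4.48% of all tested genes were called and 2.82% were called higher. The same 4 were higher in every MeVa2.1 library than in any MeVa2.2 library, as were 12% of all tested genes. Between the dOVA lines, Foxd3, Tfap2b and Tfap2a were higher in MeVa2.1.dOVA than in MeVa2.2.dOVA, 3 of 8, where 11.3% of tested genes were called and 6.45% were called higher. Those 3, with Ngfr and Sox2, were higher in every MeVa2.1.dOVA library than in any MeVa2.2.dOVA library, as were 14% of tested genes. The counts of 4 of 8 and 3 of 8 cannot be read as enrichment over the percentages of all tested genes. Foxd3, Tfap2b and Ngfr are among the 8 only through the libraries in which they are high. The genes were also chosen with earlier results of these data known.

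Foxd3, a forkhead repressor of early crest and a known repressor of Mitf in melanoblasts, lies at chr4:99656299-99658622 on the plus strand (GRCm38). It had 4.14, 6.89 and 10.9 CPM in replicates 1, 2 and 3 of MeVa2.1.dOVA and 5.83, 4.53 and 9.07 CPM in those of MeVa2.1. In MeVa2.2.dOVA the 3 libraries held 0, 0 and 1 reads of Foxd3, and in MeVa2.2 they likewise held 0, 0 and 1. All 6 libraries of MeVa2.1 origin were thus above all 6 of MeVa2.2 origin. With 518 reads in MeVa2.1 against 1 in MeVa2.2, the ratio of pooled levels was 439, with a 95% counting interval of 78.5 to 17376, and the adjusted p was 0.00014 (edgeR). With 565 reads in MeVa2.1.dOVA against 1 in MeVa2.2.dOVA the ratio was 587 (105 to 23219; adjusted p = 6.77e-05, edgeR). These intervals cover counting error only. Of the Foxd3 exon bases, 3.83% are shared with the miRNA gene Gm23366 on the same strand, where reads cannot be assigned to either.

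Tfap2b encodes AP-2 beta, which together with AP-2 alpha is needed for crest and facial development, and lies at chr1:19208914-19238576 on the plus strand. It had 112, 58.1 and 124 CPM in the 3 libraries of MeVa2.1.dOVA, against 0, 0 and 0.06 CPM in those of MeVa2.2.dOVA. In the parents it had 115, 49.5 and 172 CPM in MeVa2.1, against 0.71, 0.16 and 1.98 CPM in MeVa2.2. The lowest library of MeVa2.1 origin was far above the highest library of MeVa2.2 origin, although the 3 libraries of MeVa2.1 were themselves widely spread. The ratio of pooled levels was 117 between MeVa2.1 and MeVa2.2 (counting interval 91.7 to 151; adjusted p = 0.00044, edgeR). It was 301 without replicate 3 of MeVa2.2, which held 52 of the 67 reads of that line, and 75.9 without replicate 3 of MeVa2.1. Between MeVa2.1.dOVA and MeVa2.2.dOVA it was 3698, from 7121 reads against 2 (1023 to 30542; adjusted p = 6.88e-05, edgeR), and those 2 reads were both in replicate 3 of MeVa2.2.dOVA.

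Tfap2a encodes AP-2 alpha, a factor of crest induction that also binds with MITF at pigment genes, and lies at chr13:40715302-40738376 on the minus strand. Unlike its paralog it was present throughout, at 103, 118 and 110.3 CPM in MeVa2.1 against 56.4, 50.4 and 52.6 CPM in MeVa2.2. The log2 fold change was 1.08 (SE 0.23, adjusted p = 0.0230, edgeR), which is 2.11-fold. The dOVA lines had 77.9, 52.6 and 98.7 CPM in MeVa2.1.dOVA against 43.2, 29.3 and 51.4 CPM in MeVa2.2.dOVA. Their libraries did not overlap, though the lowest of MeVa2.1.dOVA and the highest of MeVa2.2.dOVA were close, and the log2 fold change was 0.93 (SE 0.23, adjusted p = 0.0241, edgeR). Leaving out any single library of MeVa2.1 or MeVa2.2 ended the call between the parents, with adjusted p from 0.0532 to 0.0956 (edgeR) and a log2 fold change from 0.99 to 1.13. Between the dOVA lines the call ended without replicate 1 or 3 of MeVa2.1.dOVA (adjusted p = 0.0834 and 0.111, edgeR) or replicate 1 or 2 of MeVa2.2.dOVA (0.0819 and 0.118), and in a fit to these 2 lines only (0.101). Antisense genes overlap 7.75%, 1.49% and 5.41% of the Tfap2a exons, and whether counting used strand is not given in the sources used here.

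The makeup of AP-2 RNA differed by origin. Per length, the ratio of the Tfap2b level to the Tfap2a level was 1.11, 0.854 and 0.970 in the libraries of MeVa2.1.dOVA and 0.866, 0.323 and 1.21 in those of MeVa2.1. It was 0, 0 and 0.000893 in MeVa2.2.dOVA and 0.00974, 0.00243 and 0.0291 in MeVa2.2. The lines of MeVa2.1 origin thus held both paralogs and those of MeVa2.2 origin held almost only Tfap2a. Tfap2c, whose product AP-2 gamma acts in trophoblast and germ cells as well as the crest, had 1 read in replicate 1 of MeVa2.1 and 0 in the other 11 libraries. The other AP-2 genes, Tfap2d and Tfap2e, did not pass the filter, and Tfap2d had 0 reads throughout.

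**Figure D2:**
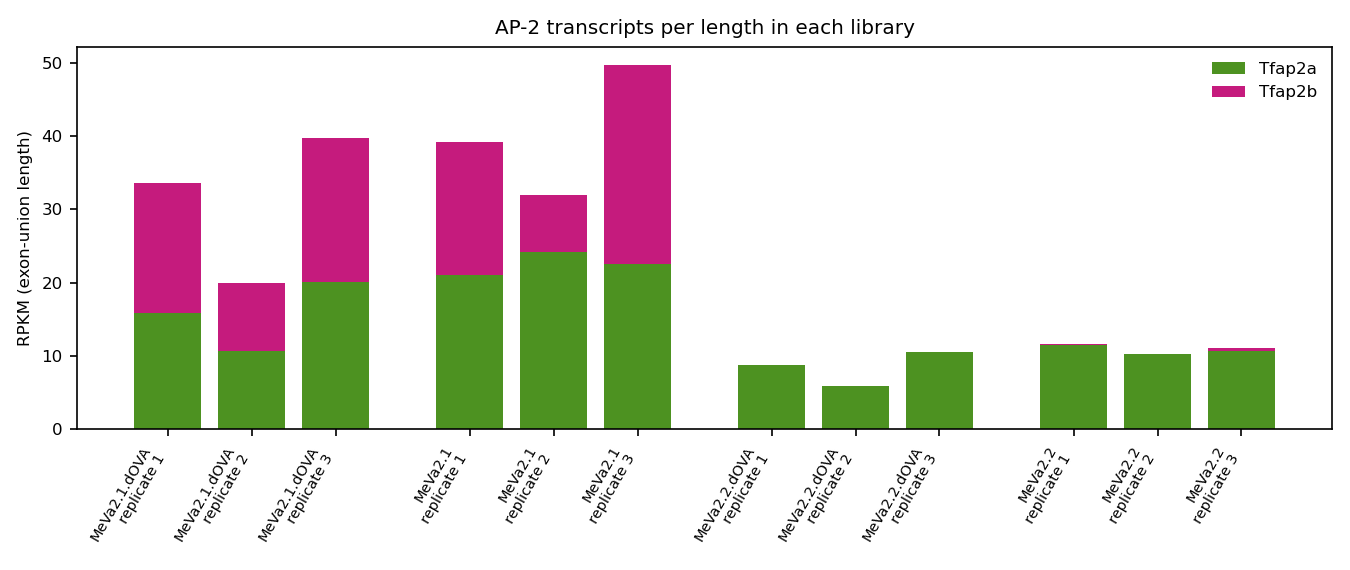
Stacked bars of Tfap2a (green, lower) and Tfap2b (magenta, upper) in RPKM (vertical axis) for each of the 12 libraries (horizontal axis). Libraries of MeVa2.1.dOVA and MeVa2.1 hold both genes, and those of MeVa2.2.dOVA and MeVa2.2 hold Tfap2a with little or no Tfap2b.

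Ngfr, at chr11:95568818-95587735 on the minus strand, was low in all lines. It had 6.05, 1.15 and 1.60 CPM in MeVa2.1 against 0.18, 0 and 0.30 CPM in MeVa2.2. All 3 libraries of MeVa2.1 were above those of MeVa2.2, and replicate 1 held 112 of the 191 MeVa2.1 reads. The ratio of pooled levels was 14.7 (counting interval 8.04 to 30.0) and the fitted log2 fold change was 4.09 (SE 1.01, adjusted p = 0.0438, edgeR). That call ended without any 1 library of MeVa2.1 or MeVa2.2 (adjusted p from 0.0586 to 0.163, edgeR; 0.163 without replicate 1 of MeVa2.1, at a log2 fold change of 3.02). It also ended without replicate 3 of MeVa2.1.dOVA (0.0560), without replicate 1, 2 or 3 of MeVa2.2.dOVA (0.0640, 0.0540 and 0.0508), without both libraries that stand apart (0.0996) and in a fit to the parents only (0.0876). In the dOVA lines Ngfr had 1.17, 0.23 and 0.23 CPM in MeVa2.1.dOVA against 0.05, 0 and 0.03 CPM in MeVa2.2.dOVA, a ratio of 16.1 from 31 reads against 2 (4.10 to 139). The libraries did not overlap, but the difference did not pass the threshold (adjusted p = 0.0675, edgeR). It passed with the replicate number as a block (adjusted p = 0.0156, edgeR), where 22% of tested genes were called. It also passed with no filter on low counts (0.0195, edgeR), with DESeq2 (0.0184), without replicate 2 of MeVa2.2 (0.0461, edgeR) and without both libraries that stand apart (0.0465, edgeR). Without replicate 1 of MeVa2.1.dOVA the log2 fold change was 2.86, against 4.01 with all libraries.

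The sequences before a RefSeq start of each of these 4 genes are shown because the genes were higher together in MeVa2.1. RefSeq promoter windows (GRCm38.p6) were available for 6 of the 10 genes, and the 250 bases before the start are printed 5′ to 3′ on the gene's strand. The windows are chr4:99656049-99656298 for Foxd3, chr1:19211804-19212053 for Tfap2b, chr13:40734921-40735170 for the first listed start of Tfap2a and chr11:95587699-95587948 for Ngfr. The RefSeq starts of Tfap2b, Tfap2a and Ngfr differ from the outer ends of the GENCODE genes given above. The Tfap2b and Tfap2a windows lie inside those spans and the Ngfr window partly so. The Foxd3 start is the same in both, and its window lies before its span. Capitals mark matches, on either strand, to 8 motifs, each spelled out after the sequences.
Foxd3: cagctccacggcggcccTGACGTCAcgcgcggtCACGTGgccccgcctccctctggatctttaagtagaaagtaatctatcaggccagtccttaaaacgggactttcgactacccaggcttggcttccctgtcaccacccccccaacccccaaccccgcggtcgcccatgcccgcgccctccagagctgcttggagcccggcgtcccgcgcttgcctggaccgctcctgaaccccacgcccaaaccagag
Tfap2b: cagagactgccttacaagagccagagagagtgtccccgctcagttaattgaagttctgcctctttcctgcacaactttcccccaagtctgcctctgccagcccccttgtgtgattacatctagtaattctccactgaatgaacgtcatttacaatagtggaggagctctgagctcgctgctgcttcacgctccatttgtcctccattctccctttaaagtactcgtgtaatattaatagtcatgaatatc
Tfap2a: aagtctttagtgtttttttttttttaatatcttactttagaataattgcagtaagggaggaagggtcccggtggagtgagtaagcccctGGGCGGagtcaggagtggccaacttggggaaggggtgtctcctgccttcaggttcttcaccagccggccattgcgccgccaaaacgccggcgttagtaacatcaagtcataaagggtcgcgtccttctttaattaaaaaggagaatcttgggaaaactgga
Ngfr: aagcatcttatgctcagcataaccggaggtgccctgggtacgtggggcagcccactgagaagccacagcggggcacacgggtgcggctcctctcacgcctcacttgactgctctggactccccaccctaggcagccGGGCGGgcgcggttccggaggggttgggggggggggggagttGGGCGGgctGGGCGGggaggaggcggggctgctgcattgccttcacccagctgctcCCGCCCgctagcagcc
The Foxd3 window holds the cyclic AMP response element TGACGTCA beginning 233 bases before the start, which 1.55% of 32851 promoter windows of the same length hold. It also holds the E-box CACGTG beginning 217 bases before the start, found in 6.02% of windows. The Ngfr window holds 4 matches to the GC box GGGCGG and the Tfap2a window 1, 161 bases before the start, and 32.7% of windows hold that motif. The Tfap2b window holds none of the 8. The AP-2 motif GCCNNNGGC was found in 13.7% of all windows and the M-box core CATGTG in 12.3%. The SOX motif AACAAT was found in 9.42%, the TATA box TATAAA in 12.4% and the CCAAT box in 33.8%. The motifs do not overlap each other in the windows printed here. GC content was 65.6% for Foxd3, 46.4% for Tfap2b, 47.6% for Tfap2a and 70.4% for Ngfr. A match is a description of letters, and no binding was measured.

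**Figure D3:**
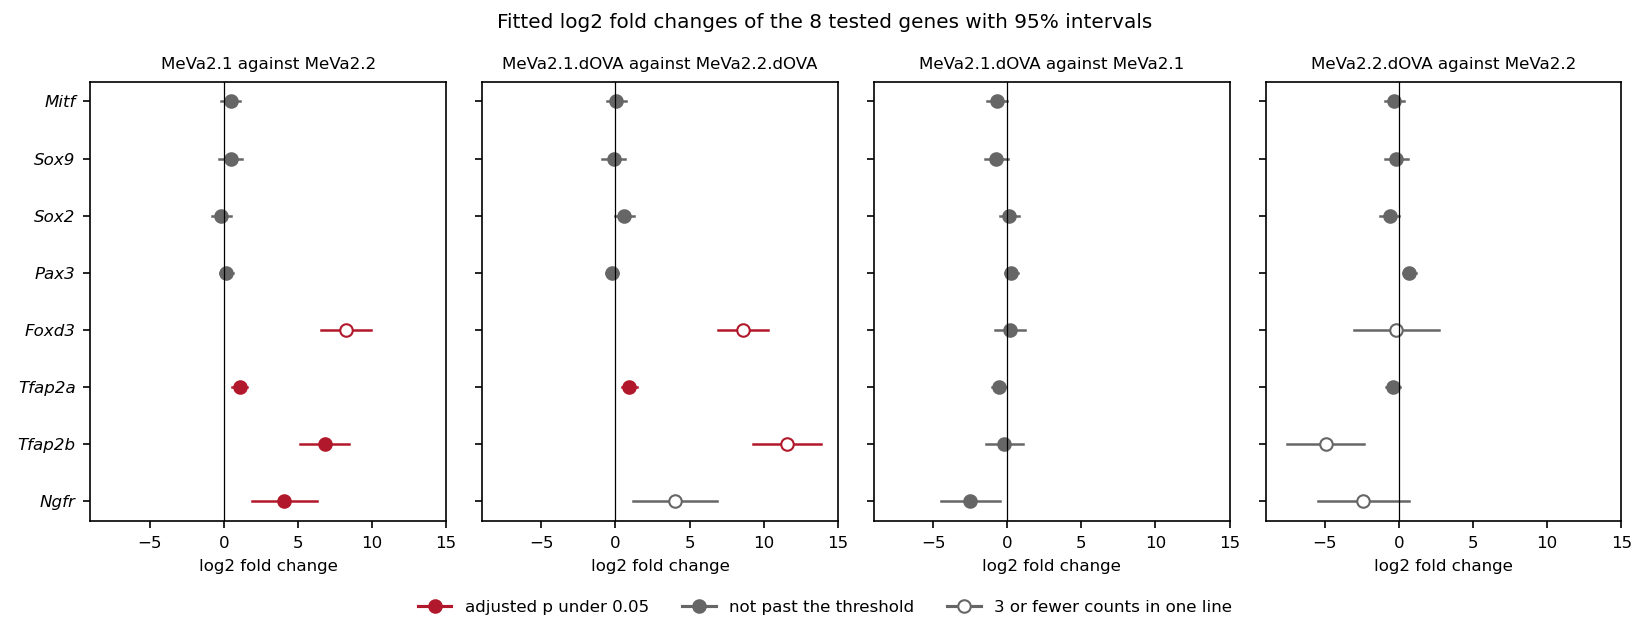
Fitted log2 fold changes (horizontal axis, first line over second) of the 8 tested genes in 4 comparisons, with 95% intervals as lines. Red marks an adjusted p under 0.05, and open symbols mark genes with 3 or fewer reads in 1 of the lines, whose fitted size depends on the prior count. Red symbols appear only in the comparisons between origins, for Foxd3, Tfap2a, Tfap2b and, between the parents, Ngfr.

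Mitf and Pax3 passed no test between the origins. Mitf, the basic helix-loop-helix regulator of melanocyte fate, at chr6:97807052-98021349 on the plus strand, had 24.1, 19.5 and 13.2 CPM in MeVa2.1 and 17.5, 10.1 and 14.3 CPM in MeVa2.2. The dOVA lines had 14.2, 8.84 and 12.4 CPM in MeVa2.1.dOVA and 14.2, 8.85 and 11.5 CPM in MeVa2.2.dOVA. The ranges overlapped in both comparisons, and the 95% interval of the log2 fold change ran from -0.59 to 0.72 between the dOVA lines and from -0.19 to 1.11 between the parents. Pax3 lies at chr1:78101267-78197134 on the minus strand and encodes a paired-box factor of crest and melanoblasts. It had 29.9, 39.1 and 26.2 CPM in MeVa2.1.dOVA and 39.0, 39.1 and 37.3 CPM in MeVa2.2.dOVA, which overlapped (log2 fold change -0.25, interval -0.67 to 0.18). The parents overlapped too, at 23.9, 27.5 and 26.3 CPM in MeVa2.1 and 22.7, 25.5 and 21.6 CPM in MeVa2.2. Their log2 fold change had the other sign, at 0.17 (interval -0.25 to 0.59).

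Mitf is transcribed from several starts, and gene counts do not tell them apart. The start nearest the 3′ end among the 3 in RefSeq is that of the melanocyte form, shown because its cyclic AMP response element is the textbook route to Mitf in melanocytes. Its window is chr6:97991533-97991782, and capitals mark matches to the same 8 motifs.
Mitf: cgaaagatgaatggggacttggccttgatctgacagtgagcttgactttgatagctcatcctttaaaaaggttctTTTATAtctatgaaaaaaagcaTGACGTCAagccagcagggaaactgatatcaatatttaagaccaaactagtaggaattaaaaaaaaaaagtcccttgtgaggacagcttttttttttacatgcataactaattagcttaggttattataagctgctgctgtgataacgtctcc
The cyclic AMP response element begins 153 bases before the start and the TATA box match, on the other strand, 175 bases before it. The window has a GC content of 36.0%.

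Sox2, a stem cell factor that in the crest lineage marks glial progenitors and restrains Mitf, lies at chr3:34650405-34652461 on the plus strand. It had 99.4, 103 and 88.2 CPM in MeVa2.1.dOVA, against 85.9, 53.8 and 55.7 CPM in MeVa2.2.dOVA, which did not overlap. The log2 fold change of 0.60 did not pass the threshold (SE 0.29, adjusted p = 0.199, edgeR). The parents overlapped, at 76.3, 109 and 74.8 CPM in MeVa2.1 and 95.8, 63.0 and 137 CPM in MeVa2.2. Sox9, which directs crest formation and cartilage, lies at chr11:112782224-112787760 on the plus strand. It had 63.2, 39.0 and 23.4 CPM in MeVa2.1 and 24.0, 40.0 and 28.0 CPM in MeVa2.2, a spread within MeVa2.1 wider than the distance between the lines.

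Sox10, the factor that maintains melanocyte and glial identity, lies at chr15:79154908-79165240 on the minus strand and was close to undetected. It had 5, 0 and 0 reads in replicates 1, 2 and 3 of MeVa2.1.dOVA, 5, 0 and 0 in MeVa2.1, 2, 0 and 1 in MeVa2.2.dOVA and 19, 0 and 8 in MeVa2.2. Of the 40 reads in all, 31 were in replicate 1 libraries, 9 in replicate 3 libraries and none in replicate 2 libraries. The melanocyte markers largely followed the same libraries: all 6 had reads in 5 libraries, and these 5 were among the 6 with Sox10 reads. The summed marker level was 41.8 CPM in replicate 1 of MeVa2.2, which had the most Sox10, and from 0.213 to 1.57 CPM in the 6 libraries without Sox10. The other library with Sox10, replicate 3 of MeVa2.2.dOVA with 1 read, lay within that range at 0.327 CPM. Mitf was also highest in replicate 1 within each of the 4 lines. With 3 reads in MeVa2.2.dOVA and 27 in MeVa2.2, the ratio of pooled Sox10 levels was 0.0973 (counting interval 0.0189 to 0.316), but MeVa2.2 was itself divided between 0 and 19 reads. Whether other cells or RNA in these libraries have a part in the Sox10 reads was not tested.

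**Figure D4:**
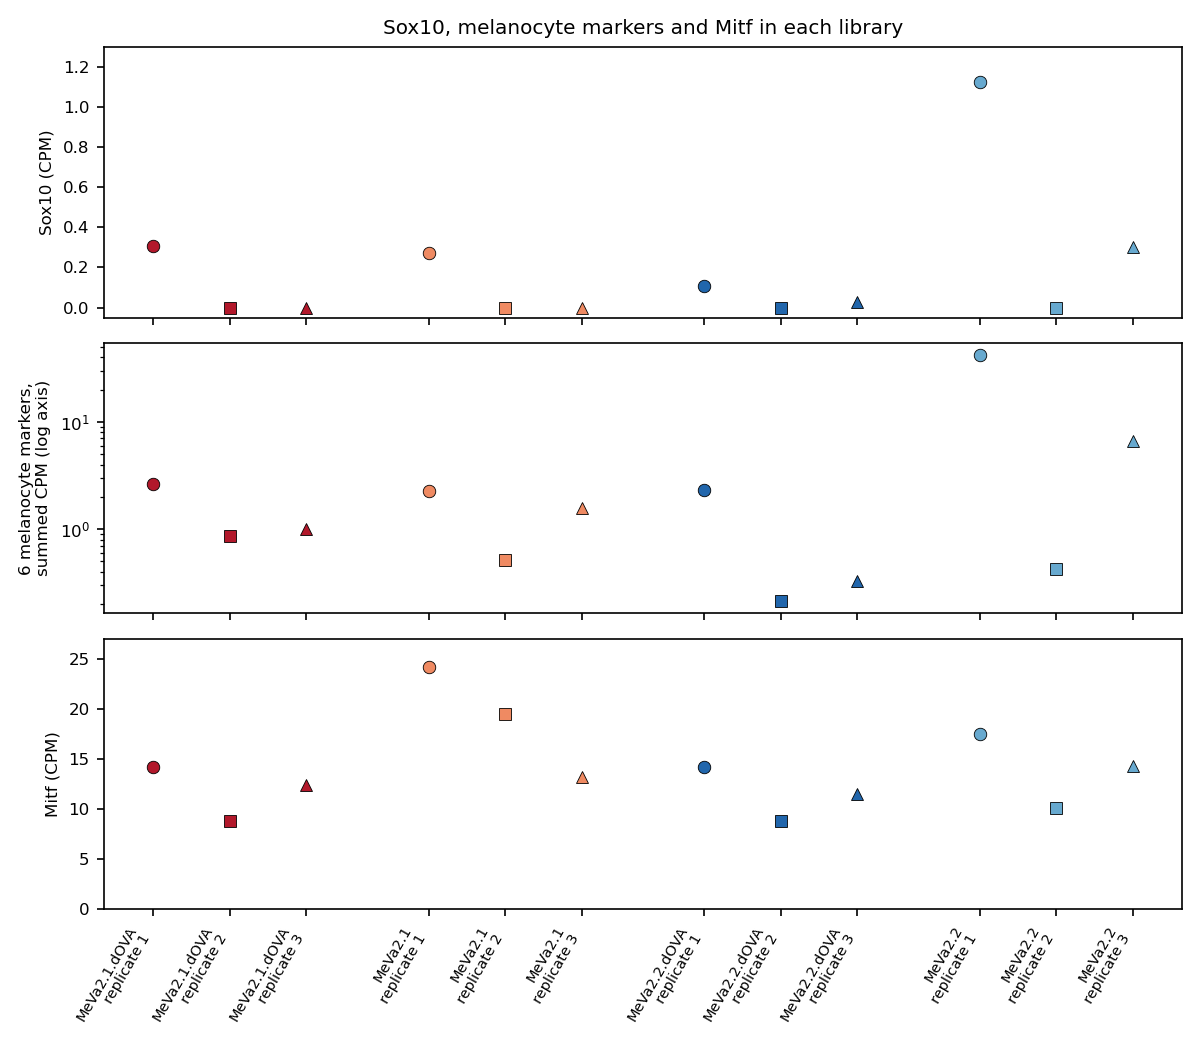
Sox10 in CPM (top), the summed CPM of 6 melanocyte markers on a log axis (middle) and Mitf in CPM (bottom), with 1 symbol for each of the 12 libraries (horizontal axis) and symbol shape for the replicate number. Replicate 1 of MeVa2.2 has the highest Sox10 and marker sum, at 1.12 and 41.8 CPM, and Mitf is present in every library.

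Of 20 genes listed as MITF-driven or melanocyte genes, 11 were tested. Between MeVa2.1 and MeVa2.2, 1 of the 11 was called, where 4.48% of all tested genes were, and it was lower: the endothelin receptor gene Ednrb, at 0.648, 0.26 and 0.477 CPM in MeVa2.1 against 2.78, 4.27 and 2.81 CPM in MeVa2.2 (adjusted p = 0.0262, edgeR). Ednrb was also lower in MeVa2.2.dOVA, with 1 read in 3 libraries, than in MeVa2.2 (adjusted p = 0.00396, edgeR), the 1 of the 11 called where 1.99% of tested genes were. The call between the parents ended without any 1 library of MeVa2.1 or without replicate 1 or 2 of MeVa2.2, with adjusted p up to 0.129 (edgeR), while that within the MeVa2.2 pair held on leaving out each of the 12 libraries in turn and without both libraries that stand apart. Gpnmb, a lysosomal glycoprotein gene under MITF and TFE3, had 95.9 to 787 CPM over the 12 libraries. Met, the hepatocyte growth factor receptor gene, had 157 to 239.9 CPM and the cell cycle kinase gene Cdk2 27.3 to 67.8 CPM, and neither was called in any comparison. Of the other MIT-family genes, Tfe3 had 72.5 to 117 CPM and per length stood at 9.77 ± 0.41 RPKM in MeVa2.1.dOVA (SD, n = 3), above Mitf at 1.90 ± 0.44 RPKM. The median log2 fold change of the 11 genes was -3.27 in MeVa2.2.dOVA against its parent, where that of all tested genes was -0.02. Of the 11, 10 were lower and 1 was higher. The higher one was Gpnmb, the most abundant of the 11, at a log2 fold change of 1.46 (adjusted p = 0.0762, edgeR). Met and Cdk2 stood at only -0.32 and -0.48. The 11 include 4 of the melanocyte markers, whose level in MeVa2.2 rests on single libraries. Tyrp1, Dct and Pmel had 208, 268 and 108 reads in replicate 1 of MeVa2.2, 0, 0 and 5 in replicate 2 and 55, 60 and 40 in replicate 3, and Tyr had 41, 3 and 1.

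Within the pairs of a dOVA line and its parent, no tested gene of the 10 passed the threshold by edgeR, 0 of 8 in each. The background was 0.486% of tested genes called in the MeVa2.1 pair and 1.99% in the MeVa2.2 pair. At an unadjusted p under 0.05 there were 3 in the MeVa2.1 pair, Mitf, Tfap2a and Ngfr, and 2 in the MeVa2.2 pair, Pax3 and Tfap2b. Of all 13985 tested genes, 1567 and 2298 had an unadjusted p under 0.05 in these pairs. DESeq2 called 0 and 2 of the 8, against 2.4% and 5.85% of the genes it tested. In MeVa2.1.dOVA against MeVa2.1 the log2 fold change was -0.70 for Mitf (SE 0.30, adjusted p = 0.418, edgeR), -0.55 for Tfap2a (SE 0.23, adjusted p = 0.400) and -2.48 for Ngfr (SE 0.91, adjusted p = 0.336). Tfap2a was the 1 gene of the 8 without overlap in that pair, lower in all 3 libraries of MeVa2.1.dOVA, as were 10.4% of tested genes. Sox9 had 31.9, 26.0 and 17.5 CPM in MeVa2.1.dOVA and 63.2, 39.0 and 23.4 CPM in MeVa2.1, which overlapped (log2 fold change -0.75, adjusted p = 0.461, edgeR). Number for number, Mitf, Sox9, Tfap2a and Ngfr were each lower in all 3 MeVa2.1.dOVA libraries than in the MeVa2.1 library of the same number, 4 of 8 where 24.8% of tested genes were. With the replicate number as a block, none of the 8 passed, where 2.6% of tested genes were called (adjusted p = 0.145, 0.234, 0.156 and 0.0534 for these 4, edgeR). Without both libraries that stand apart the log2 fold changes of Mitf, Sox9, Tfap2a and Ngfr were -0.53, -0.78, -0.34 and -2.15. In the MeVa2.2 pair Mitf, Sox2, Tfap2a and Tfap2b were lower in all 3 dOVA libraries, number for number, and Pax3 was higher. Lower Mitf and Tfap2a by number were thus seen in both pairs. The share of all tested genes was not counted for the MeVa2.2 pair. Of the 6 fibroblast markers, Dcn was called lower in MeVa2.1.dOVA than in its parent, and Dcn, Pdgfra and Thy1 in the MeVa2.2 pair (adjusted p = 0.0328, 0.0178, 0.0483 and 0.0178, edgeR). Without both libraries that stand apart, Dcn in the MeVa2.1 pair and Pdgfra did not pass (0.126 and 0.0523, edgeR). On leaving out each of the 12 libraries in turn, Dcn held in 5 fits in the MeVa2.1 pair and 9 in the MeVa2.2 pair. Pdgfra held in 1 and Thy1 in 10 (adjusted p up to 0.181 and 0.0974, edgeR). In a fit to the compared lines only, none of these 4 calls passed (0.0892, 0.0903, 0.112 and 0.0768, edgeR). The part of these markers in the dOVA differences was not tested.

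In the MeVa2.2 pair Pax3 was higher in every dOVA library, as were 9.83% of tested genes, and Tfap2b lower in every dOVA library, as were 7.49%. Pax3 had 39.0, 39.1 and 37.3 CPM in MeVa2.2.dOVA, against 22.7, 25.5 and 21.6 CPM in MeVa2.2. The log2 fold change was 0.70 (SE 0.19, adjusted p = 0.0952, edgeR). It passed with DESeq2 (adjusted p = 0.0146) and without both libraries that stand apart (0.0417, edgeR). Tfap2b had 2 reads in MeVa2.2.dOVA and 67 reads in the parent, a ratio of 0.0261 (counting interval 0.0031 to 0.0982; adjusted p = 0.0586, edgeR). It passed with DESeq2 (adjusted p = 0.0016), with no filter on low counts (0.00106, edgeR), without replicate 2 of MeVa2.2 (0.0218) and without both libraries that stand apart (0.0197). Replicate 3 of MeVa2.2 held 52 of the 67 reads, and without it the adjusted p was 0.247 (edgeR).

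The difference between the 2 dOVA differences was tested for all 8, and none passed by edgeR, where 0.0858% of tested genes were called. Tfap2b was the 1 gene whose unadjusted 95% interval lay off 0, at 4.75 on the log2 scale (interval 1.77 to 7.73; adjusted p = 0.264, edgeR). It was the 1 gene of the 8 at an unadjusted p under 0.05, where 1187 of all 13985 tested genes were. DESeq2 called it (adjusted p = 0.0270), where it called 1.73% of the genes it tested, as did edgeR with no filter on low counts (0.0207).

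Further Sox genes differed between the lines. Of 16 further Sox genes, 5 were tested. Sox12, Sox13 and Sox6 were higher in MeVa2.1.dOVA than in MeVa2.2.dOVA, 3 of 5 where 6.45% of tested genes were called higher, with a median log2 fold change of 2.58 against 0.01 for all tested genes. Sox12, a SOXC gene expressed in crest and nervous tissue, had 4.76, 3.85 and 5.47 CPM in MeVa2.1.dOVA against 1.40, 0.32 and 0.178 CPM in MeVa2.2.dOVA (log2 fold change 2.97, SE 0.59, adjusted p = 0.00789, edgeR). Sox13, a SOXD gene, had 50.6, 27.4 and 73.6 CPM in MeVa2.1.dOVA against 2.48, 1.33 and 5.37 CPM in MeVa2.2.dOVA (4.07, SE 0.56, adjusted p = 0.000933, edgeR). Both fell in MeVa2.2.dOVA, 2 of 5 where 1.57% of tested genes were called lower, against MeVa2.2, in which Sox12 had 15.6, 8.79 and 14.8 CPM and Sox13 had 12.4, 12.6 and 24.8 CPM (log2 fold changes -4.44 and -2.47, adjusted p = 0.00935 and 0.0417, edgeR). Neither passed between the parents. Replicate 1 of MeVa2.2.dOVA held most of the Sox12 reads of that line, and without it the Sox12 log2 fold changes were 4.30 between the dOVA lines and -5.75 against MeVa2.2. Between the dOVA lines Sox12 and Sox13 were called on leaving out each of the 12 libraries in turn and Sox6 in 3 of the 12 (adjusted p up to 0.177 and log2 fold change 1.83 to 3.50, the extremes without replicate 3 of MeVa2.1.dOVA and replicate 3 of MeVa2.2.dOVA). Against MeVa2.2, Sox12 was called in 11 of the 12, the exception being replicate 2 of MeVa2.2.dOVA (adjusted p = 0.0657, edgeR), and Sox13 in 3 (up to 0.157). In a fit to the compared lines only, Sox13 between the dOVA lines was the 1 of these 5 calls that remained. Sox4, a SOXC gene, was the most abundant of the 5 per length and passed no comparison.

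Of 26 other crest regulators, 20 were tested, and between the parents none was called (median log2 fold change 0.12, against -0.02 for all tested genes). Between the dOVA lines 3 were higher in MeVa2.1.dOVA (Twist2, Zic2 and Prrx1) and 2 lower (Snai1 and Lef1), 5 of 20 where 11.3% of tested genes were called (median 0.11, against 0.01). Zic2, a zinc-finger factor of the dorsal neural tube, had 0.68, 1.72 and 1.93 CPM in MeVa2.1.dOVA against 0.0539, 0 and 0.0297 CPM in MeVa2.2.dOVA. It was the 1 of the 20 that passed between MeVa2.1.dOVA and MeVa2.1, where 0.486% of tested genes were called, and MeVa2.1 had 0.054, 0.0521 and 0.168 CPM (log2 fold change 3.79, SE 0.72, adjusted p = 0.0493, edgeR). That call ended without any 1 of the 12 libraries (adjusted p from 0.0506 to 0.232, edgeR), without both libraries that stand apart (0.140) and in a fit to these lines only (0.0882). Between the dOVA lines Zic2, Twist2 and Snai1 were called in each of these settings, while Lef1 and Prrx1 were not without both libraries that stand apart (0.0748 and 0.0716, edgeR). Twist1 had 44.4 to 80.9 CPM over the 12 libraries and was called in no comparison. Among 12 glial genes known to follow SOX10, 7 were tested. Pou3f1, a POU factor of myelinating Schwann cells, had 17.7, 14.2 and 22.7 CPM in MeVa2.1.dOVA against 1.46, 2.76 and 1.46 CPM in MeVa2.1 (3.25, SE 0.53, adjusted p = 0.0277, edgeR), the 1 of the 7 called in that pair. The call ended without any 1 library of either line (adjusted p up to 0.151, edgeR) and without both libraries that stand apart (0.0752, at a log2 fold change of 3.40). It was at most 0.158 CPM in the lines of MeVa2.2 origin and was the 1 of the 7 called between the parents, where 4.48% of tested genes were. Between the dOVA lines Pou3f1 and S100b were higher and Cdh19 lower, 3 of 7 where 11.3% of tested genes were called, and Cdh19 did not pass without both libraries that stand apart (0.0674, edgeR). On leaving out each of the 12 libraries, Pou3f1 was called in 12 fits, S100b in 9 and Cdh19 in 6 (adjusted p up to 0.0647 and 0.132 for the last 2, edgeR). In these lines S100b had at most 1.11 CPM and Cdh19 at most 1.55 CPM. A set of 6 Schwann markers summed to between 2.35 and 6.80 CPM, and Sox10 had no reads in 2 of the 3 libraries of MeVa2.1.dOVA.

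Of 14 other genes of the neurotrophin pathway, 9 were tested, and Sort1 was higher in both lines of MeVa2.1 origin. It was the 1 of the 9 called between the parents and between the dOVA lines, where 4.48% and 11.3% of tested genes were called. Sort1, whose product sortilin pairs with p75 to bind proneurotrophins, had 51.5, 48.1 and 49.7 CPM in MeVa2.1 against 15.1, 7.90 and 12.5 CPM in MeVa2.2 (log2 fold change 2.1, SE 0.28, adjusted p = 0.00173, edgeR). It had 31.5, 26.0 and 34.5 CPM in MeVa2.1.dOVA against 10.7, 7.20 and 16.1 CPM in MeVa2.2.dOVA (1.48, SE 0.28, adjusted p = 0.00607, edgeR). Sort1 was not called within either pair. The ligand gene Bdnf had 29.5 to 92.4 CPM over the 12 libraries and passed no comparison. The receptor tyrosine kinase genes Ntrk2 and Ntrk3 did not pass the filter.

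Genes known from dedifferentiated melanoma all passed the filter on low counts, 14 of 14, though some were low in most libraries. The lowest by median over the 12 libraries were Loxl2 at 0.0754 CPM and Wnt5a at 0.375 CPM. Axl, a receptor tyrosine kinase gene typical of that state, had 1243 to 1844 CPM over the 12 libraries and passed no comparison. Wnt5a was lower in MeVa2.1 than in MeVa2.2, at 0.054, 0.208 and 0.365 CPM against 4.02, 2.26 and 4.22 CPM (log2 fold change -3.94, SE 0.65, adjusted p = 0.00558, edgeR), the 1 of 14 called where 4.48% of tested genes were. Egfr and Tead4 were lower in MeVa2.2.dOVA than in its parent (log2 fold changes -3.88 and -1.11, adjusted p = 0.0453 and 0.0462, edgeR), 2 of 14 where 1.99% of tested genes were called. On leaving out 1 library these calls held in 4 and 2 of 12 fits, with adjusted p up to 0.120 and 0.138 (edgeR), and the Egfr log2 fold change was -3.13 without replicate 3 of MeVa2.2.dOVA. Without both libraries that stand apart both passed (0.0313 and 0.0477, edgeR). Both were higher in MeVa2.1.dOVA than in MeVa2.2.dOVA, 2 of 14 where 11.3% of tested genes were called, a comparison that shares the MeVa2.2.dOVA libraries, and there Egfr did not pass without both libraries that stand apart (0.0634, edgeR).

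**Figure D5:**
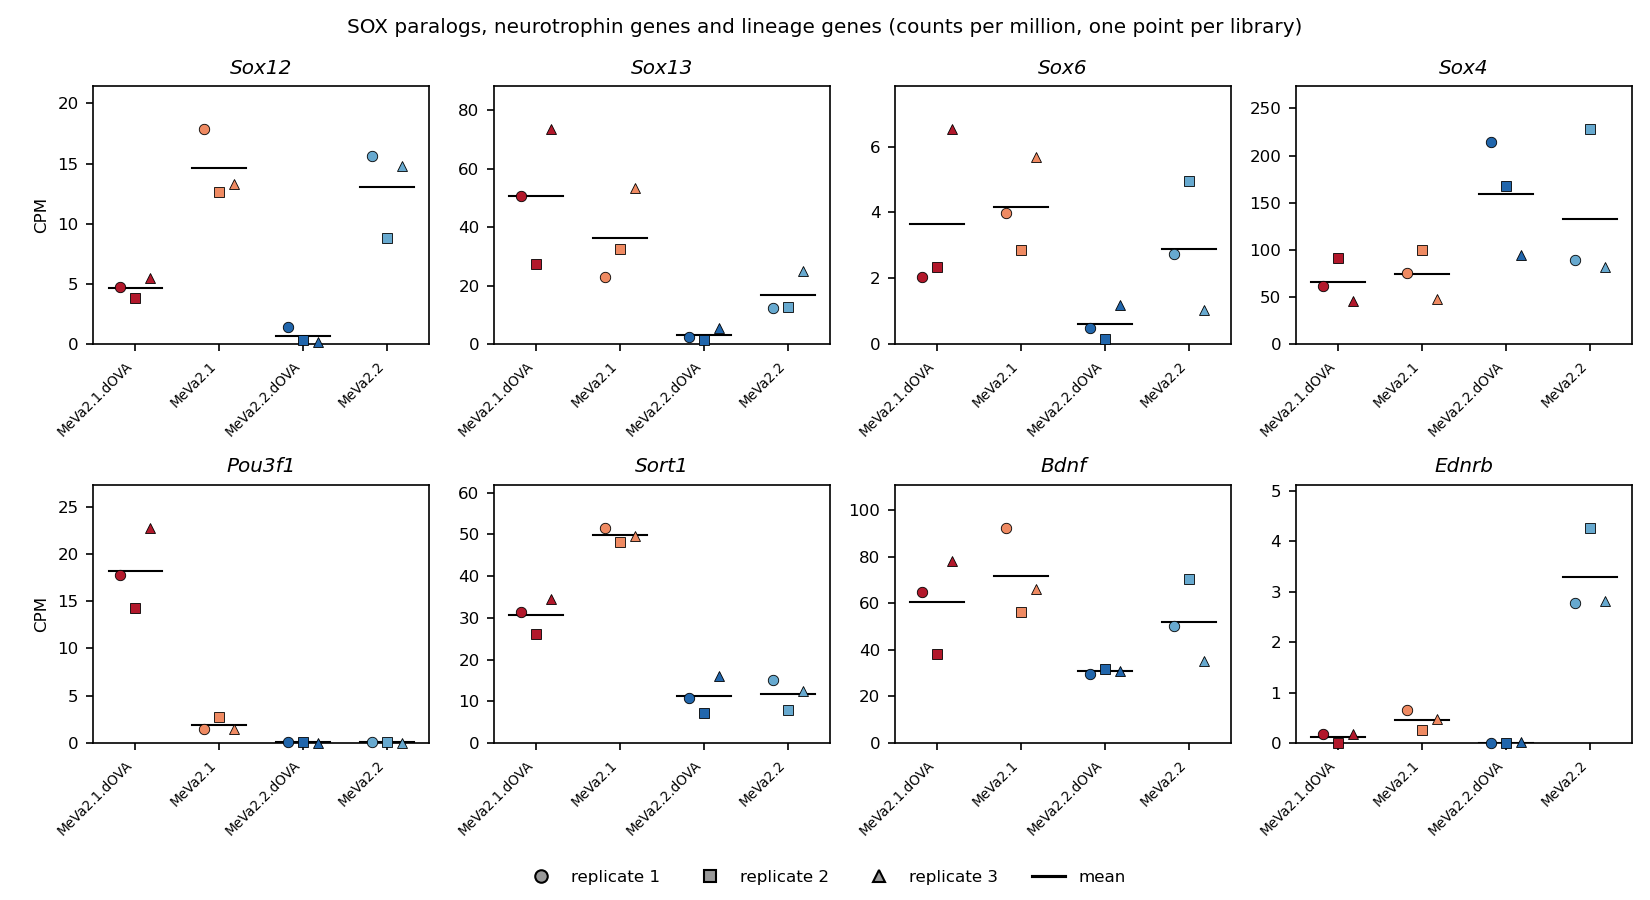
Levels in CPM (vertical axis, starting at 0 in each panel) of 4 further Sox genes, Pou3f1, Sort1, Bdnf and Ednrb by line, with 1 symbol per library and a bar at the mean of 3. Sox12 and Sox13 are lowest in MeVa2.2.dOVA, Pou3f1 is highest in MeVa2.1.dOVA and Sort1 is higher in both lines of MeVa2.1 origin.

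The genes whose levels were most like each factor were ranked by Pearson's r of log2 CPM over the 12 libraries, which share their 4 lines, among well expressed named genes. Tfap2b was closest to Scara5, a ferritin receptor gene (r = 0.987), which had 232 ± 17.2 CPM in MeVa2.1.dOVA and 473 ± 163 CPM in MeVa2.1, against 0.42 ± 0.127 CPM in MeVa2.2.dOVA and 3.64 ± 2.74 CPM in MeVa2.2 (SD, n = 3 each). Foxd3 was closest to Pik3cd, a PI3-kinase subunit gene (r = 0.979), at 175 ± 59.1 and 162 ± 18.9 CPM in MeVa2.1.dOVA and MeVa2.1, against 0.697 ± 0.439 and 1.18 ± 0.573 CPM in MeVa2.2.dOVA and MeVa2.2. Tfap2a was closest to Spry1, a feedback inhibitor of receptor tyrosine kinases (r = 0.968), Pax3 to Asxl2 (0.959), Ngfr to Ckb (0.959) and Mitf to Gmppa (0.931). Sox9 was closest to Areg (0.847) and Sox2 to Slco5a1 (0.842), the lowest top values of the 8. With lines so far apart, such an r is a description of which lines are high.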

How the data were processed

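Counts per gene were deposited by the authors, 1 file per library, as whole-number read counts. The build GRCm38 and the tools HTSeq 0.10.0, STAR 2.6.0c and DESeq2 1.30.1 are named, per the submitters' processing notes. Per the labels' protocols, libraries were made with a stranded mRNA kit. The tally lines, 35.8% to 40.0% of each library, stayed out of library sizes and tests. Reads of low mapping quality made up 77.3% to 83.8% of the tally lines. No replicate pair agreed within counting noise. Whether replicates came from separate cultures is not labelled, and the spread behind each p-value may be technical.

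Genes were filtered with filterByExpr (13985 kept), scaled by TMM and fitted in edgeR 4.0.16 (R 4.3.3) with 1 mean per line over 12 libraries. Tests were quasi-likelihood F tests adjusted over all kept genes at 0.05. Each SE is implied by that test's F and restates it. Lengths and positions come from GENCODE M21. Pooled ratios carry exact 95% counting intervals. Alternatives were RLE scaling, no filter, DESeq2 1.42.0, the compared lines only, a replicate block and leaving out each library. The removal of both outlying libraries was added after seeing the data. Members and lists were chosen with earlier results of these data known. All 10 members are named, with the called or most abundant genes of each list, some of which are not reported here.

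Same-numbered libraries were checked for pairing by the correlation of their deviations from line means (the labels do not explain the numbers). It was 0.503, 0.488 and 0.534 for the MeVa2.1 pair, 0.429, 0.405 and 0.328 for the parents and 0.105, 0.516 and 0.416 for the dOVA lines, all over the limit of 0.1.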

Additional observations from a re-analysis of the deposited data

How the results depend on the processing

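Foxd3 and Tfap2b were called between the parents and between the dOVA lines in every setting run, and Tfap2a and Ngfr were not. Leaving out 1 library at a time gave 2 to 4 of the 8 genes called between MeVa2.1 and MeVa2.2 and 2 to 4 between the dOVA lines. In MeVa2.2.dOVA against MeVa2.2, 0 became 1 with no filter, 2 with the replicate block (Pax3, adjusted p = 0.0219, and Tfap2b, 0.00497, edgeR), 2 with DESeq2, 2 without both outlying libraries and 0 to 1 on leaving out 1 library. In the difference of differences 0 became 1 (Tfap2b) with no filter, with the replicate block (adjusted p = 0.0237, edgeR) and with DESeq2. For the MeVa2.2 pair the deviations of same-numbered libraries correlated at 0.0815, 0.640 and 0.521. The first was just under the limit of 0.1, and the lowest of the dOVA lines was just over it at 0.105. The limit therefore does not settle whether the numbers of the MeVa2.2 pair are pairs. The main tests used no block in any comparison. Besides the calls of Pax3 and Tfap2b given above and Ngfr between the dOVA lines, the block changed no call.

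Signs of several uncalled log2 fold changes turned, and the cause was not tested. On leaving out 1 library, MeVa2.1.dOVA against MeVa2.1 ran from -0.24 to 0.48 for Foxd3 and from -0.54 to 0.23 for Tfap2b (0.0645 without both outlying libraries). MeVa2.2.dOVA against MeVa2.2 ran from -0.34 to 0.0695 for Sox9 (0.0701 without both) and from -1.91 to 1.77 for Foxd3. Sox2 ran from -0.40 to 0.16 between the parents, and between the dOVA lines Mitf ran from -0.0722 to 0.24 and Sox9 from -0.31 to 0.0859. The difference of differences ran from -1.60 to 2.09 for Foxd3, from -0.39 to 0.0493 for Tfap2a (0.0855 without both) and from -1.24 to 1.01 for Ngfr (0.0264 with the replicate block, 0.80 without both, 0.12 with DESeq2).

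Genes called over the whole table varied more. Between MeVa2.1.dOVA and MeVa2.1 there were 68, against 272 with no filter, 25 in these lines only, 364 with the block, 2 without both and 389 with DESeq2. Between MeVa2.2.dOVA and MeVa2.2 there were 278, against 729, 5, 1084, 693 and 950. Between the parents there were 627, against 969, 397, 1330, 446 and 1216, and between the dOVA lines 1574, against 1752, 1025, 3079, 1717 and 2380. For the difference of differences there were 12, against 161 with no filter, 118 with the block, 10 without both and 272 with DESeq2. Depth limits Sox10, Tfap2c, Tfap2b in MeVa2.2.dOVA (2 reads) and, in the lines of MeVa2.2 origin, Foxd3 and Ngfr: 3 reads over a line were worth about 0.04 CPM.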
